A study of Mus musculus with 6 samples.

Results

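Anaphylatoxin receptors and complement regulators were examined as the probe sets that name, alone, one of 7 genes, C3ar1, C5ar1, C3, Cfp, Cd55, Cr1l and Cd59a. Such probe sets were found for 6 of the 7 genes, 14 probe sets of 45141 on the array, and C3 is not analysed here. The array annotation gives 3 probe sets to C3ar1, 2 to C5ar1, 1 to Cfp, 3 to Cd55, 3 to Cr1l and 2 to Cd59a, lettered here within a gene by descending mean signal. Blood of 3 female C57BL/6 mice, labelled A, C and D and between 6 and 8 weeks of age, was sorted into CD11c+ and CD11c- fractions of CD3+ CD62L- CD44high T cells. Each fraction of 300 cells was amplified and hybridised to 1 Affymetrix array, so that there were 3 CD11c+ and 3 CD11c- arrays, paired by mouse. The labels describe a group of 6 females given 3 mg of the progestin Depo-Provera under the skin 5 days before they were killed and bled (a day earlier by the methods), and do not say which of the 3 mice belonged to it. CD11c, encoded by Itgax, is the α chain of an integrin that also serves as complement receptor 4.

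Complement is a cascade of plasma proteins whose central steps are the cleavage of C3 and of C5. The small fragments released, C3a and C5a, are called anaphylatoxins and act on cells through G protein-coupled receptors, which are best known on myeloid cells such as monocytes, neutrophils, mast cells and basophils. Host cells are protected by membrane proteins that stop the cascade on their own surface, and T cells carry several of these.

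The labelled cell types were checked first. Itgax had log2 signals of 8.93, 9.06 and 8.93 in the CD11c+ fractions of mice A, C and D, against 5.80, 3.88 and 4.12 in their CD11c- fractions. Cd44, another antigen of the sort, averaged 9.18 in CD11c+ and 9.19 in CD11c- cells. The 4 CD3 chain genes lay far above background in both fractions, with a mean log2 fold change of -0.74. None of them passed the test (limma with Benjamini-Hochberg adjustment, adjusted p from 0.0611 to 0.214), but all 4 had an unadjusted p under 0.05. So had 6087 of all 45141 probe sets, in either direction. All 4 were lower in CD11c+ cells of 3 of 3 mice, as were 26.5% of all genes. Their fractions did not overlap, with CD11c- on top, as for 12.5% of all genes. Markers of other cells were present in the CD11c+ fraction. All 12 measured monocyte and macrophage markers and all 9 measured basophil and mast cell markers were higher in the CD11c+ fraction of 3 of 3 mice, as were 12.6% of all genes. The marker values are set beside the receptors below. In such bulk samples, fewer cells of a type and less RNA per cell cannot be told apart. A log2 level of 5.80, the 95th percentile of 34 genes of liver, muscle, brain and other distant tissues, served as the background level, and 28.7% of all probe sets had a mean above it.

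C3ar1, the receptor for C3a, and C5ar1, the receptor for C5a, were far higher in CD11c+ than in CD11c- cells and were the only genes of the 6 to pass the test. The brightest probe set of C3ar1 (C3ar1 a) had log2 signals of 9.11, 9.63 and 10.37 in CD11c+ cells of mice A, C and D, against 3.54, 3.61 and 3.58 in CD11c- cells. The fractions did not overlap, the CD11c- arrays lay within a narrow band below background, and the CD11c+ arrays spread over more than a log2 unit. CD11c+ cells averaged 9.70 ± 0.63 and CD11c- cells 3.57 ± 0.04 (SD, n = 3 mice each), a log2 fold change of 6.13 ± 0.27 (standard error, SE, limma adjusted p = 0.00629). Since the CD11c- mean was not above background, the difference taken against the background level was at least 15.0-fold.

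The second probe set of C3ar1 (C3ar1 b) had log2 signals of 8.55, 9.16 and 10.27 in CD11c+ cells, against 3.12, 2.85 and 3.40 in CD11c- cells. Its log2 fold change was 6.20 ± 0.31 (SE, limma adjusted p = 0.00805). The dimmest (C3ar1 c) had 5.76, 6.89 and 7.93 in CD11c+ cells, against 3.36, 3.30 and 3.13 in CD11c- cells, and its log2 fold change of 3.59 did not pass (SE 0.48, limma adjusted p = 0.0671). All 3 probe sets thus separated the fractions completely with CD11c+ on top, as did 6.4% of all probe sets. Against the background level their means were at least 15.0-fold, 11.5-fold and 2.09-fold higher in CD11c+ cells. For C3ar1 c the CD11c+ signal of mouse A, 5.76, was itself below background.

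C5ar1 gave a similar picture from 2 probe sets. The brighter (C5ar1 a) had log2 signals of 8.68, 9.49 and 10.51 in CD11c+ cells of mice A, C and D, against 4.71, 4.64 and 5.06 in CD11c- cells. The lowest CD11c+ array was well above the highest CD11c- array. CD11c+ cells averaged 9.56 ± 0.92 and CD11c- cells 4.80 ± 0.23 (SD, n = 3 mice each), a log2 fold change of 4.76 ± 0.31 (SE, limma adjusted p = 0.0152). With the CD11c- mean below background this was at least 13.5-fold. The dimmer probe set (C5ar1 b) had 8.13, 8.73 and 9.30 in CD11c+ cells, against 3.06, 3.17 and 2.54 in CD11c- cells, and a log2 fold change of 5.80 ± 0.36 (SE, limma adjusted p = 0.0132).

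At an unadjusted p under 0.05, 3 of the 6 genes were higher and 1 lower, beside 6087 of all 45141 probe sets in either direction. By the adjusted p, 2 of the 6 genes passed the test as higher and 0 as lower, where 1.4% of all 17097 genes passed as higher and 0.222% as lower. Over probe sets these were 4 higher and 0 lower of 14, against 0.957% and 0.168% of all probe sets. The study itself named C3ar1 and C5ar1 from these arrays, so the count is a description and not independent evidence of its direction. The median log2 fold change of the 6 genes was 1.05, and that of all genes -0.09. Leaving out mouse A, C3ar1 was still 6.41 higher on the log2 scale (limma adjusted p = 0.0943) and C5ar1 5.15 higher (adjusted p = 0.0977), and no probe set of the array passed there. Leaving out mouse C, C5ar1 a had 4.71 (limma adjusted p = 0.0564), while C5ar1 b with 5.92 (adjusted p = 0.0436) and C3ar1 a with 6.19 (adjusted p = 0.0257) still passed.

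**Figure D1:**
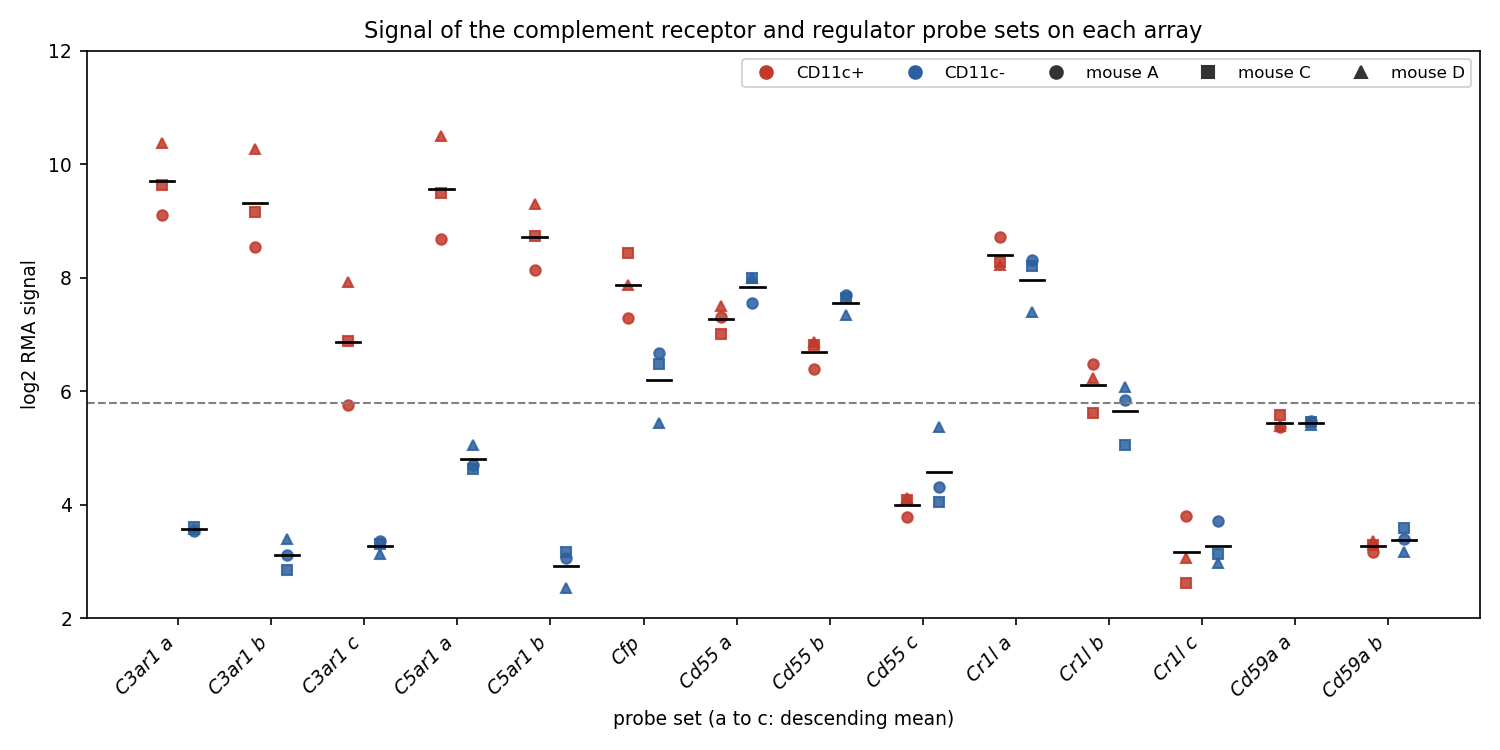
Log2 RMA signal (vertical axis) of the 14 probe sets (horizontal axis, lettered by descending mean within a gene) on each of 6 arrays, with colour for the fraction, marker shape for the mouse, black ticks for fraction means and a broken line where background (5.80) ends. The 5 probe sets of C3ar1 and C5ar1 and that of Cfp separate the fractions with CD11c+ on top, as do 6.4% of all probe sets. Cd55 a and Cd55 b separate them with CD11c- on top, as do 12.5% of all probe sets. Cd55 c and the probe sets of Cr1l and Cd59a overlap.

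The promoters of both receptor genes and of Cd55, whose lower signals in CD11c+ cells did not pass the test, are shown beside these levels. Each is the 250 bases before the transcription start in RefSeq (build GRCm38.p6), 5′ to 3′ on the strand of the gene. The capitals mark GGAA or, on the other strand, TTCC, the core letters bound by ETS factors. Matches of the 2 strands cannot overlap.
C3ar1 (chr6:122856158-122856407, minus strand): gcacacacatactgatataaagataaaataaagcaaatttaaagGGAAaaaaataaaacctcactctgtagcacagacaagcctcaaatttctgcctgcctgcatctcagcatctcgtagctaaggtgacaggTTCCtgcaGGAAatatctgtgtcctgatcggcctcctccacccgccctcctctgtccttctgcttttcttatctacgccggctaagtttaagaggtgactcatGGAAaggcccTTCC
C5ar1 (chr7:16259339-16259588, minus strand): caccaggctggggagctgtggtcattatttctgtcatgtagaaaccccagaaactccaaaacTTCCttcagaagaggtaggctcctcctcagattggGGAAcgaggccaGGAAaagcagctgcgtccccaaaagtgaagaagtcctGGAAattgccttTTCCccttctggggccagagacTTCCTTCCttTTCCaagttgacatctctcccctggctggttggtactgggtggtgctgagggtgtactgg
Cd55 (chr1:130462745-130462994, minus strand): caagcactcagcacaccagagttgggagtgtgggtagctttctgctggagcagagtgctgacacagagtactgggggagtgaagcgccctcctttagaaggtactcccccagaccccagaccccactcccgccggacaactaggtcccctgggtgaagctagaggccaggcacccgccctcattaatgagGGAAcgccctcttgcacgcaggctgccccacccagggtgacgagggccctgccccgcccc
These windows held 5 matches for C3ar1, 8 for C5ar1 and 1 for Cd55. Those of the other measured genes held 1 for Cfp, 3 for Cr1l and 5 for Cd59a. Cd59a thus held as many as C3ar1, and Cfp as many as Cd55. Of 32851 promoter windows of the same length, 93.4% held at least 1 match, 18% held 5 or more and 1.45% held 8 or more, so a match as such is common. The CG dinucleotide occurred 5 times for C3ar1, 2 times for C5ar1 and 8 times for Cd55, against a median of 6. These matches are a description of the letters, and binding was not measured.

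The receptors varied together between mice. In all 5 probe sets of C3ar1 and C5ar1 the CD11c+ array of mouse A was the lowest and that of mouse D the highest, and the difference between the fractions was likewise smallest in mouse A and largest in mouse D. For the brightest probe set of C3ar1 the CD11c+ minus CD11c- differences were 5.58, 6.02 and 6.80 on the log2 scale in mice A, C and D. For that of C5ar1 they were 3.97, 4.85 and 5.45. The probe sets share their arrays, so these are not separate observations of the order of the mice.

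Markers of other cell types stood beside these values as follows. Of the 12 monocyte and macrophage markers measured, 11 were above background in CD11c+ cells and 3 in CD11c- cells, and 6 passed the test as higher (1.4% of all genes did). Their mean log2 signals were 7.67, 8.23 and 8.23 in CD11c+ cells of mice A, C and D, against 5.00, 5.16 and 5.27 in CD11c- cells. Lyz2, the lysozyme of myeloid cells, had the largest fold change of this list. Its log2 signals were 10.26, 10.71 and 10.69 in CD11c+ cells of mice A, C and D, against 2.57, 3.19 and 5.06 in CD11c- cells (limma adjusted p = 0.0154). Of the 9 basophil and mast cell markers, 8 were above background in CD11c+ cells and 0 in CD11c- cells, and 7 passed as higher. Their means were 7.30, 8.06 and 8.07 in CD11c+ cells, against 3.78, 3.64 and 3.68 in CD11c- cells. In both lists, as for the receptors, the lowest CD11c+ mean was that of mouse A. This was not particular to them. The NK cell markers averaged 7.83, 8.22 and 7.94 in CD11c+ cells of mice A, C and D, and the dendritic cell markers 6.14, 6.52 and 6.46. In the neutrophil, B cell, T cell, and platelet and red cell lists another mouse was lowest. Ms4a2, a chain of the high-affinity IgE receptor, had the largest fold change of the basophil and mast cell list. Its log2 signals were 9.03, 9.37 and 9.79 in CD11c+ cells, against 3.14, 2.91 and 3.08 in CD11c- cells (limma adjusted p = 0.00554). The part of these cell types in the signals of the receptors, and in those of Cfp, Itgam and Cd93 below, was not tested.

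Neutrophils also carry C5ar1. S100a8 and S100a9, the abundant calcium-binding proteins of neutrophils, had mean log2 signals of 3.32 and 4.43 in CD11c+ cells, against 3.34 and 4.57 in CD11c- cells, all below background. Of the 8 neutrophil markers measured, Csf3r and Cxcr2 were above background in CD11c+ cells and none in CD11c- cells. Csf3r, the receptor for G-CSF, passed as higher, with 7.09, 6.58 and 5.71 in CD11c+ cells of mice A, C and D, against 4.24, 4.33 and 3.73 in CD11c- cells (limma adjusted p = 0.0300). Cxcr2, a chemokine receptor of neutrophils, had 7.04, 7.38 and 7.94 in CD11c+ cells, against 4.29, 4.26 and 3.13 in CD11c- cells, and did not pass (adjusted p = 0.0595). The fractions did not overlap for either gene, as for 7.48% of all genes with CD11c+ on top. The mean of the list was 4.78, 4.69 and 4.71 in CD11c+ cells, against 4.26, 4.11 and 3.87 in CD11c- cells. B cell markers ran 6.60, 6.18 and 5.65 in CD11c+ cells of mice A, C and D, against 4.95, 5.30 and 4.83 in CD11c- cells, with the highest CD11c+ mean in mouse A, and 2 of 9 passed as higher. Of the other lists, 2 of 7 dendritic cell, 3 of 9 NK cell and 1 of 8 platelet and red cell markers passed as higher and 1 NK cell marker as lower, while of 9 T cell markers 0 passed as higher and 2 as lower (0 and 8 at an unadjusted p under 0.05, limma). Among all genes, 1.4% passed as higher and 0.222% as lower. An unadjusted p under 0.05, in either direction, was found for 6087 of all 45141 probe sets.

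**Figure D2:**
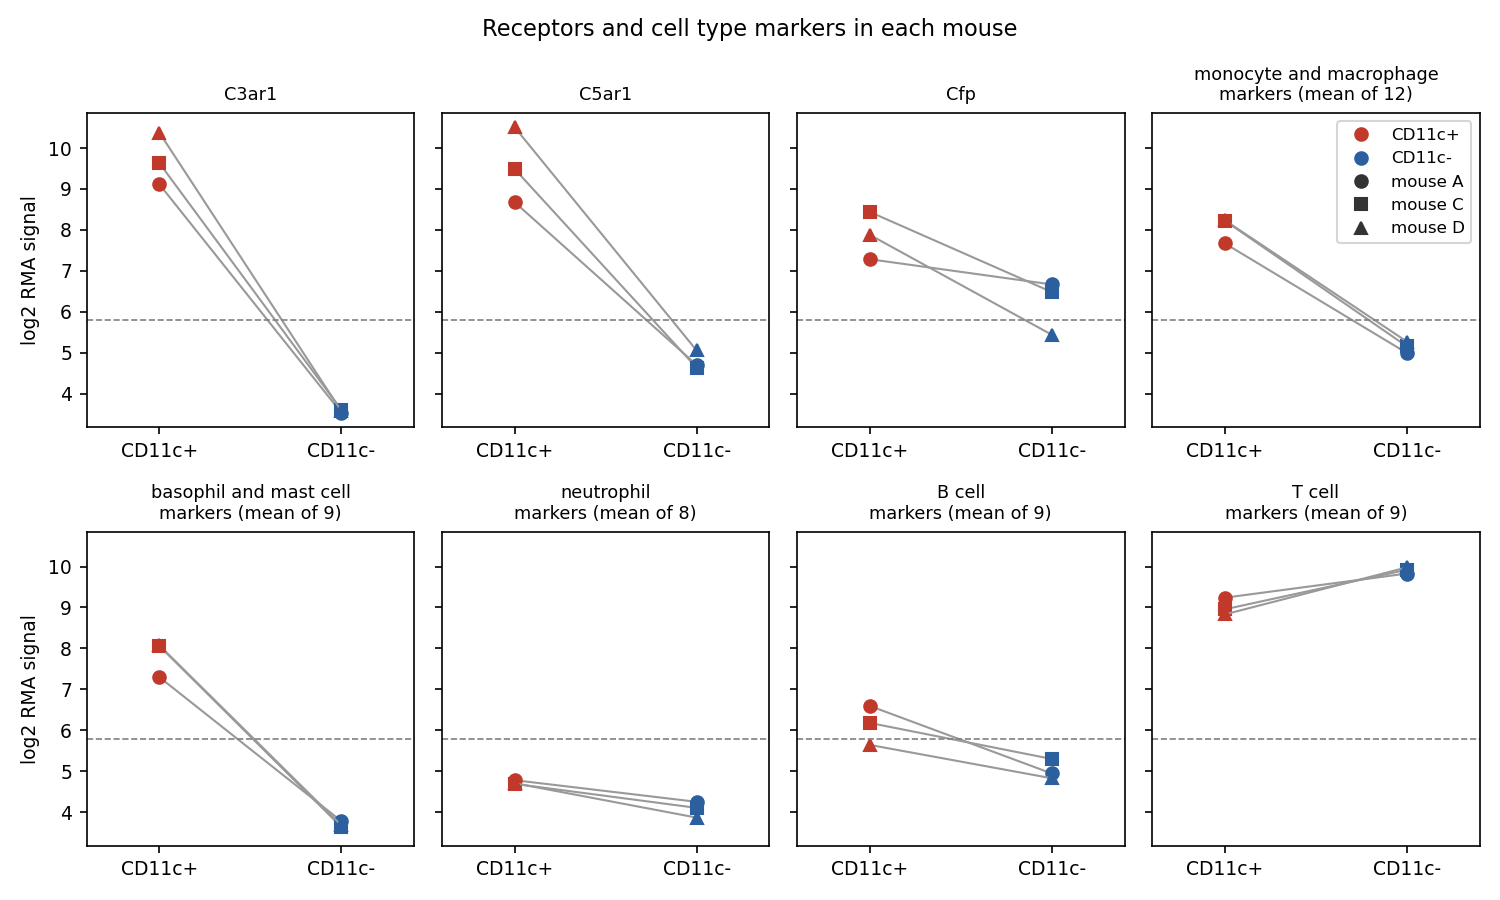
Log2 RMA signal (vertical axes) in the CD11c+ and CD11c- fraction (horizontal axes) of each mouse, for the brightest probe set of C3ar1, C5ar1 and Cfp and for the mean over the measured genes of 5 marker lists, with lines joining the fractions of 1 mouse and a broken line where background (5.80) ends. C3ar1, C5ar1, Cfp and the monocyte and basophil lists have their lowest CD11c+ value in mouse A, and the neutrophil list stays below background on all 6 arrays.

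The genes whose signals followed C3ar1 most closely over the 6 arrays, each by its brightest probe set, were Hgf (Pearson r = 0.9995), Csf2rb2 (0.999), Gab2 (0.9989), Cpa3 (0.9986) and Rab44 (0.9986). Hgf encodes hepatocyte growth factor, Csf2rb2 a receptor subunit for IL-3, Gab2 a signalling adaptor and Cpa3 the carboxypeptidase of mast cells and basophils. For C5ar1 they were Slc11a1 (r = 0.9982), a metal transporter of phagocytes, Hfe (0.9969), Vcl (0.9964), Rnd3 (0.9963) and Slc24a3 (0.9962). With 2 fractions so far apart, 69 genes had an r above 0.99 with C3ar1 and 28 with C5ar1, and all points share the same 6 arrays.

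Cfp encodes properdin, the plasma protein that stabilises the C3 convertase of the alternative pathway and that leukocytes themselves release. Its single probe set had log2 signals of 7.29, 8.44 and 7.88 in CD11c+ cells of mice A, C and D, against 6.67, 6.49 and 5.44 in CD11c- cells. The fractions did not overlap, but the gap between them was smaller than the range from lowest to highest array within either. CD11c+ cells averaged 7.87 ± 0.58 and CD11c- cells 6.20 ± 0.66 (SD, n = 3 mice each), a log2 fold change of 1.67 (95% confidence interval 0.64 to 2.70) that did not pass the test (limma adjusted p = 0.177). The difference was 0.62 in mouse A, 1.96 in mouse C and 2.44 in mouse D.

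Cd55, also called decay-accelerating factor, takes apart the C3 and C5 convertases on the cell that carries it. It was the only gene of the 6 with lower signals in CD11c+ cells of 3 of 3 mice, a pattern that 26.5% of all genes had. Its brightest probe set (Cd55 a) had log2 signals of 7.31, 7.004 and 7.51 in CD11c+ cells, against 7.56, 7.99 and 7.99 in CD11c- cells. The fractions missed overlapping by a narrow margin, and the log2 fold change of -0.57 (95% confidence interval -1.08 to -0.06) did not pass after adjustment (limma adjusted p = 0.322). The second (Cd55 b) had 6.39, 6.82 and 6.88 in CD11c+ cells, against 7.70, 7.64 and 7.34 in CD11c- cells, with a log2 fold change of -0.86 (95% confidence interval -1.41 to -0.32, limma adjusted p = 0.183). These 2 probe sets agreed on the sign but not on the mice, since the difference in mouse A was the smallest by the first, at -0.24, and the largest by the second, at -1.30. The third (Cd55 c) was not above background in either fraction, with 3.79, 4.09 and 4.13 in CD11c+ cells, against 4.32, 4.04 and 5.36 in CD11c- cells, which overlapped. Centring the arrays on the CD3 chains adds 0.74 to the log2 fold change of every gene, and by this scaling alone Cd55 a stood at 0.17 and Cd55 b at -0.12.

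By the same measure of likeness the 5 genes closest to Cd55 were 2310034O05Rik (Pearson r = 0.998), Zfp36l1 (0.9943), Tex33 (0.9926), Wrap53 (0.9904) and Txndc16 (0.9852). Their log2 fold changes lay between -0.98 and -0.17, and none passed the test, the lowest adjusted p being 0.222.

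Cr1l encodes Crry, the rodent regulator that limits C3 and C4 deposition on nearly all cells of the mouse. Its brightest probe set (Cr1l a) was well above background on all 6 arrays, with log2 signals of 8.71, 8.27 and 8.22 in CD11c+ cells, against 8.30, 8.20 and 7.40 in CD11c- cells. The values were higher in CD11c+ cells of 3 of 3 mice, yet the fractions overlapped and the log2 fold change of 0.43 did not pass (95% confidence interval -0.08 to 0.95, limma adjusted p = 0.449). The second probe set (Cr1l b) had 6.48, 5.62 and 6.23 in CD11c+ cells, against 5.85, 5.05 and 6.07 in CD11c- cells, and a log2 fold change of 0.46 (95% confidence interval 0.03 to 0.88, limma adjusted p = 0.339). The third (Cr1l c) was below background on all arrays and had a log2 fold change of -0.11 (limma adjusted p = 0.832).

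Cd59a encodes the protein that blocks assembly of the membrane attack complex. Neither of its probe sets was above background in either fraction. The brighter (Cd59a a) had log2 signals of 5.37, 5.58 and 5.40 in CD11c+ cells, against 5.47, 5.46 and 5.40 in CD11c- cells, with a log2 fold change of 0.00537 (95% confidence interval -0.35 to 0.36, limma adjusted p = 0.99). The dimmer (Cd59a b) had a log2 fold change of -0.11 (95% confidence interval -0.54 to 0.31, limma adjusted p = 0.805). A decrease, or a change that stays below background, could not be seen for Cd59a.

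Over the 6 genes, 3 separated the fractions with CD11c+ on top (C3ar1, C5ar1 and Cfp), as 7.48% of all genes did, 1 with CD11c- on top (Cd55), as 12.5% did, and 2 overlapped (Cr1l and Cd59a). Over the 14 probe sets the counts were 6, 2 and 6, against 6.4% and 12.5% of all probe sets for complete separation in each direction. In 3 of 3 mice, 4 genes were higher in CD11c+ cells and 1 lower, as were 12.6% and 26.5% of all genes, and 8 probe sets were higher and 2 lower, as were 11.3% and 26.4% of all probe sets. The share of separation in the lower direction, 2 of 14 probe sets, is near that of the whole array.

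**Figure D3:**
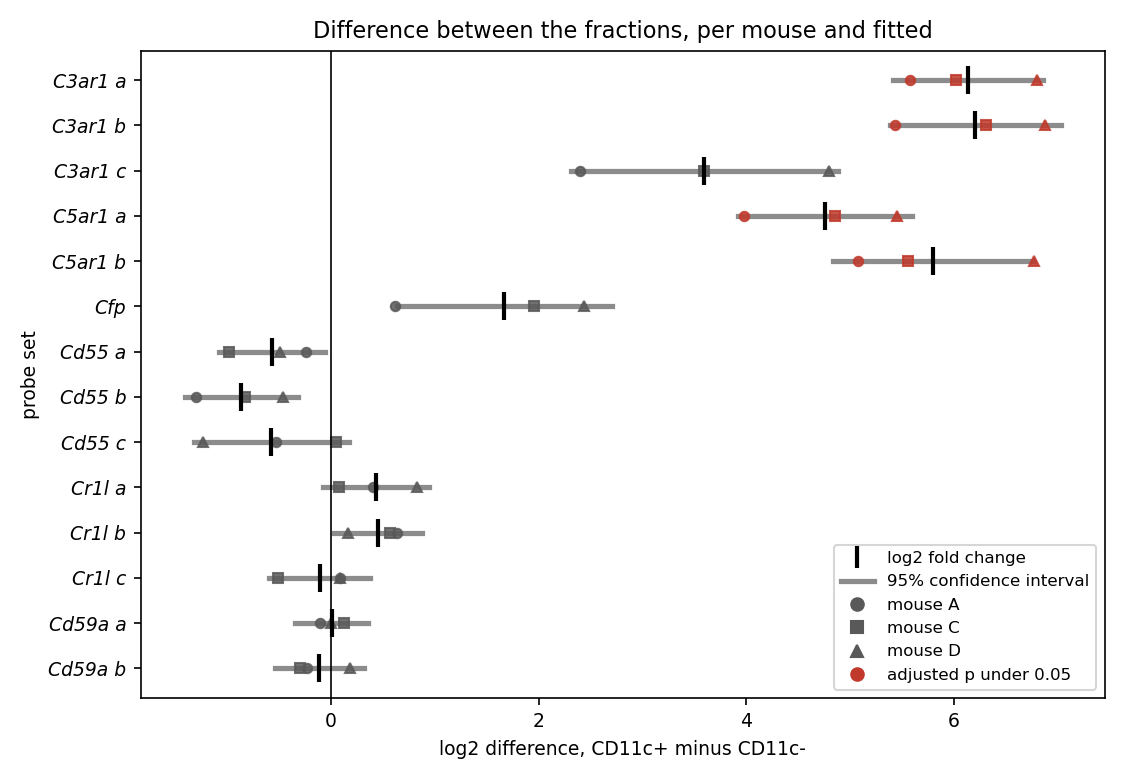
Log2 difference between CD11c+ and CD11c- fractions (horizontal axis) of the 14 probe sets (vertical axis), with symbols for the difference in each of 3 mice, black ticks for the log2 fold change, grey bars for its 95% confidence interval and red symbols where the adjusted p was under 0.05. The ticks of C3ar1 and C5ar1 lie between 3.59 and 6.20, that of Cfp at 1.67, and those of the surface regulators between -0.86 and 0.46.

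The rest of the complement system was taken from 5 lists holding 44 further genes, of which 37 had a probe set. Of these, 1 passed the test as higher, 0 as lower (2 higher and 1 lower at an unadjusted p under 0.05) and 36 did not pass, with a median log2 fold change of -0.08, close to the -0.09 of all genes. Among all genes, 1.4% passed as higher and 0.222% as lower. An unadjusted p under 0.05, in either direction, was found for 6087 of all 45141 probe sets. In neither fraction were 31 of the 37 above background. The gene that rose was Itgam, which encodes CD11b, the α chain of complement receptor 3. It had log2 signals of 7.38, 8.12 and 7.74 in CD11c+ cells of mice A, C and D, against 3.90, 4.43 and 3.90 in CD11c- cells. The log2 fold change was 3.67 ± 0.14 (SE, limma adjusted p = 0.00554), at least 3.85-fold against the background level. Without mouse A it was 3.76 on the log2 scale (limma adjusted p = 0.0881). Itgam also stands in the monocyte and macrophage list.

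Its partner Itgb2, the shared β chain of the complement receptor integrins, was among the bright genes on every array, with 10.72, 10.98 and 11.08 in CD11c+ cells, against 10.46, 10.78 and 10.59 in CD11c- cells. Its log2 fold change of 0.32 did not pass (95% confidence interval -0.04 to 0.68, limma adjusted p = 0.434). Cd93, a surface protein first described as a receptor for C1q, had 5.28, 6.19 and 6.47 in CD11c+ cells, against 3.43, 3.45 and 3.27 in CD11c- cells by its brightest probe set. That log2 fold change of 2.60 stood just outside the threshold (limma adjusted p = 0.0501), and the other 2 probe sets of Cd93, both below background, had 0.39 (adjusted p = 0.622) and -0.12 (adjusted p = 0.807). C1qbp, a mitochondrial protein that binds C1q, had -0.35 (limma adjusted p = 0.395) by its brightest probe set. Its other probe set, also above background in both fractions, had 0.08 (adjusted p = 0.945). Cr2 and Vsig4 were not above background in either fraction.

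None of the 15 measured genes of the classical and lectin pathways passed (0 at an unadjusted p under 0.05 in either direction), and 13 were not above background in either fraction. C1qb, a chain of the recognition molecule C1q that macrophages make, reached 6.41 in CD11c+ cells of mouse D, against 3.70 in mouse A and 4.14 in mouse C, while the CD11c- arrays of mice A, C and D had 4.08, 3.91 and 3.75. The differences for C1qa, C1qb and C1qc were 0.93, 2.66 and 1.62 in mouse D, and lay between -0.38 and 0.23 in mice A and C. Of the alternative pathway Cfb, factor B, was measured below background, at -0.05 on the log2 scale (limma adjusted p = 0.899). The 6 genes of the terminal pathway and the 9 further regulators were below background in both fractions, with log2 fold changes from -0.29 to 0.17 and from -0.55 to 0.27. At the low end of the regulators was Cd46, the membrane cofactor protein, with -0.55 (limma adjusted p = 0.300).

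**Figure D4:**
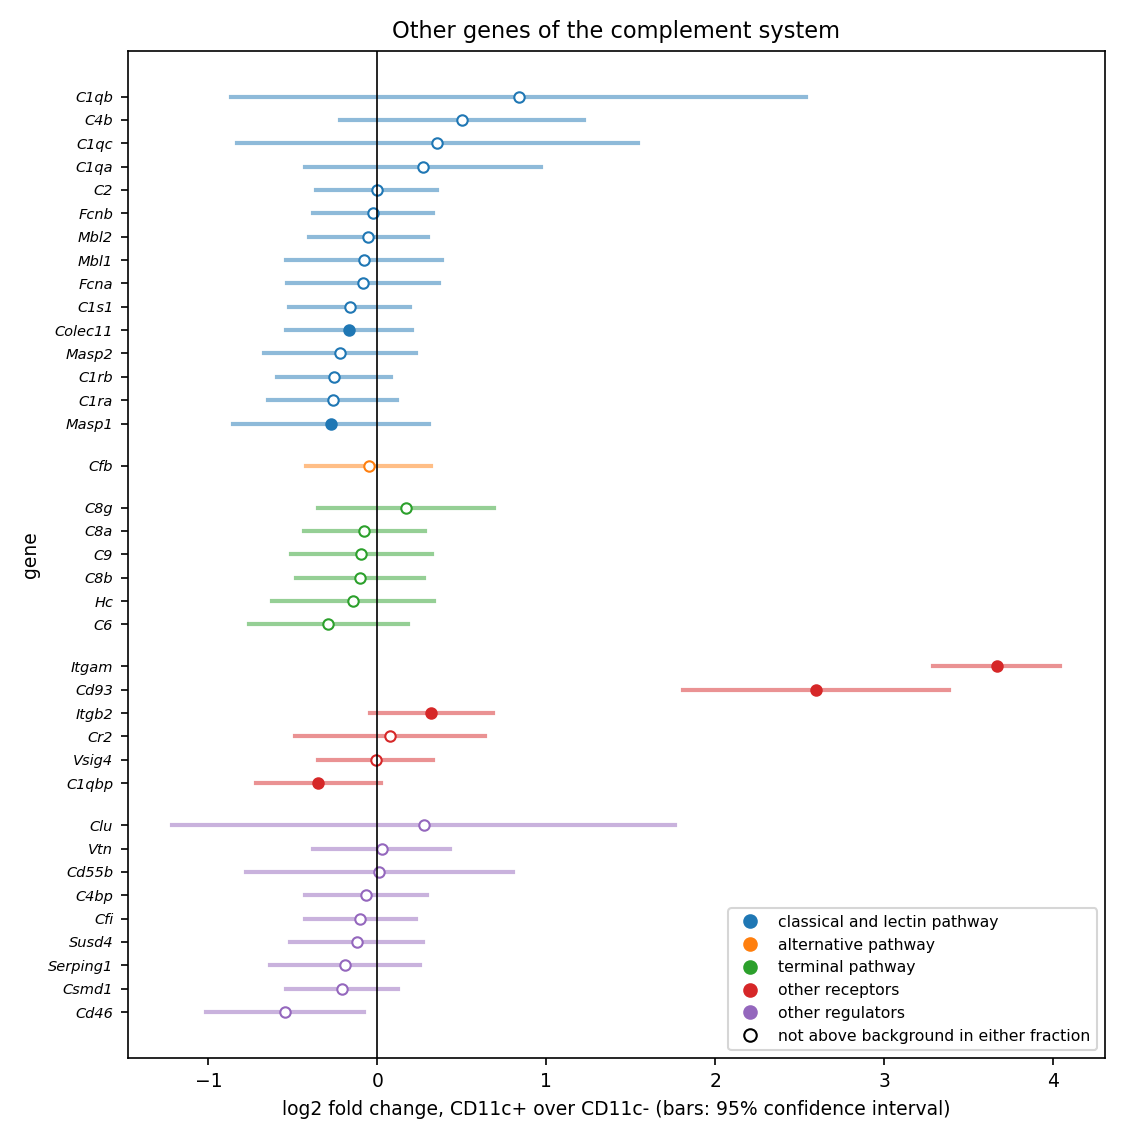
Log2 fold change between CD11c+ and CD11c- fractions (horizontal axis) of 37 further complement genes (vertical axis), coloured by list, with bars for the 95% confidence interval and open symbols for genes not above background in either fraction. Itgam at 3.67 and Cd93 at 2.60 stand apart from the rest, which lie between -0.55 and 0.84.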

How the data were processed

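The deposited values are log2 signals, which the authors took from 6 single-colour Affymetrix arrays, 1 per sample, and summarized by RMA. The submitters' processing notes also name limma, without a version. Since RMA brings arrays to a like distribution, a change in total RNA per cell cannot be seen. Amplification of RNA from 300 cells can add noise to dim signals, and the number of arrays limits the precision.

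All 45141 probe sets (104 are controls) entered a limma fit (limma 3.58.1, R 4.3.3) that had a term for each mouse. Tests were two-sided, p-values were adjusted by Benjamini-Hochberg over the whole array, and the threshold was 0.05. The labels assign both arrays of a pair to 1 mouse, and the deviations within pairs correlated at 0.122, 0.0758 and 0.109. In the platform annotation 28898 probe sets carry 1 gene, 551 several and 15692 none. The brightest probe set stands for a gene. The code of the fit was run on simulated data with known differences, which does not test the calls made here.

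The genes and lists were chosen with earlier results of these data known. Named are all probe sets of the 6 measured genes, complement genes that passed or lay at the ends of a list, and the 5 genes most like C3ar1, C5ar1 and Cd55. Beside the measured sorting antigens and CD3 chains, up to 3 genes of each marker list are named, those with the largest fold change. They were thus picked by the values shown. S100a8, S100a9, Csf3r, Cxcr2, Itgb2, Cr2, Vsig4 and the C1q chains were named outside this rule. Alternatives concerned the mouse term, the choice of probe set, a filter on low signals, the scaling of the arrays, the variance model and each mouse left out. Promoter sequences came from RefSeq, matched by symbol for all 7 genes.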

Additional observations from a re-analysis of the deposited data

How the results depend on the processing

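C3ar1 and C5ar1 stayed higher past the threshold under all 10 alternatives that keep the 3 mice. This was by their brightest probe sets, except where the probe sets of a gene were averaged (5.31 for C3ar1 and 5.28 for C5ar1). Without mouse A, C or D the number of the 6 genes called higher ran between 0 and 2, that of further complement genes between 0 and 1, and that of all probe sets between 0 and 348 higher and 0 and 44 lower. Without mouse A 5563 probe sets had an unadjusted p under 0.05, among them 3 of the 6 genes as higher and 1 as lower. The fit then holds fewer arrays. Without the mouse block 684 probe sets were higher and 211 lower, and 2 further complement genes were higher, Cd93 being the second (adjusted p = 0.0131), while no call of the 6 genes changed. A random block gave 812, 316 and 2, and a trended variance 684, 207 and 2. With probe sets above the median mean, 140 were lower and 2 further complement genes higher. The lower calls were 41 after cyclic loess, 46 after quantile normalization and 151 with the mean of the probe sets of a gene. The cause of these changes was not tested.

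Centring the arrays on the CD3 chains adds 0.74 to every log2 fold change by construction, moving the median of all genes to 0.65, so relative to the other genes no difference changed. It called 22412 probe sets higher and 232 lower, 5 of the 6 genes and 22 further complement genes higher. It turned the sign of Cd55 a (0.17), Cd55 c (0.17), Cd59a b (0.63) and Cr1l c (0.63). Cd59a a also changed sign with the mean of its probe sets (-0.0543), and its values without 1 mouse ran from -0.0553 to 0.0607, those of Cr1l c from -0.21 to 0.0895. All these were below background apart from Cd55 a. C3ar1 c, at 3.59, passed without the block (adjusted p = 0.0256), with a random block (0.0187), with a trended variance (0.0233), above the median mean (0.0291) and centred on the CD3 chains.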
